A study of Rattus norvegicus with 3 samples.

Results

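Transcripts of 7 genes of endothelial function and leukocyte adhesion were followed in the thoracic aorta of rats dosed with allylamine. They are the nitric oxide synthase Nos3, the angiotensin converting enzyme Ace, the anticoagulant receptor thrombomodulin (Thbd), the VEGF receptor Flt1, the adhesion molecules Vcam1 and Icam1 and the chemokine receptor Cxcr4. The genes were chosen by function, with earlier results of these data known, and every probe set to which the platform annotation gives 1 of these symbols alone was taken. That gave 17 probe sets, out of 7006 with a single symbol for 4736 genes. A probe set is a group of short oligonucleotides on the array that together measure 1 transcript sequence, and is named here as in the deposited table. Sprague Dawley rats were dosed for 20 days, with 35 mg/kg of allylamine (the low dose), with 70 mg/kg (the high dose) or, as the control, with 1 ml/kg of water, and 1 array was hybridised per group with total RNA of the aorta. The sources used here do not say whether an array held RNA of 1 rat or of several, nor give the rats' age or the route of dosing. With 1 array per group no difference could be tested and none has a replicate check.

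The endothelium lines the aorta as a single cell layer over smooth muscle. It makes nitric oxide, which relaxes the muscle below, it carries converting enzyme and thrombomodulin on its surface, and when stimulated by inflammatory cytokines it displays VCAM-1 and ICAM-1, to which integrins of passing leukocytes bind. Allylamine is an unsaturated amine that injures the heart and arteries. In the vessel wall an amine oxidase turns it into acrolein, a reactive aldehyde, and hydrogen peroxide.

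Intensities are given after each array was scaled to a common median. A value of 188, the 40th percentile of all scaled values, served as the floor, under which a probe set was not read as a level. Differences are log2 differences between arrays, allylamine minus control, and were taken where a probe set lay above the floor on both. A difference of at least 1, which is 2-fold, was counted. Where only 1 array lay above the floor, the fold against the floor is given as a bound. Of the 17 member probe sets, 10 lay above the floor on all 3 arrays, 6 on 2 arrays and 1 on none. Over all 8740 probe sets other than controls, 37.4% lay above it on all 3.

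The arrays differed widely from one another. Between the high dose and the control, 45.0% of the 3827 probe sets measured on both arrays differed at least 2-fold in one direction or the other, as did 36.0% of 4103 between the low dose and the control. Probe sets of 1 gene often disagreed, and the SD of their log2 differences within a gene was 1.08 at the low dose over 562 genes and 1.40 at the high dose over 490 genes. This SD is the only repeat measurement in the data and says nothing of the spread between animals. The 3' over 5' ratio of the cytoskeletal actin control was 0.376 in the control aorta, 0.542 at the low dose and 1.42 at the high dose. The hybridisation control transcripts, 9 probe sets, were brighter than in the control by a median of 3.76-fold on the low dose array and 25.9-fold on the high dose array. The range of log2 intensities, leaving out the lowest and highest 5%, was 6.58 in the control aorta, 6.16 at the low dose and 5.22 at the high dose. Scaling to a common median leaves these ranges as they are. The part of these differences between arrays in the results that follow was not tested.

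Smooth muscle markers, which define the aortic wall, lay above the floor for 6 of 7 genes in the control aorta, 4 at the low dose and 6 at the high dose, with summed intensities of 2807, 2038 and 4733. Such sums, here and below, add the mean intensity of every listed marker on the array, values below the floor included. Of 9 endothelial markers, members left out, 5 lay above the floor in the control aorta, 8 at the low dose and 6 at the high dose, and each of the 9 did so on at least 1 array. Their summed intensities were 2836, 3414 and 4222. In this sum the VEGF receptor Kdr, singled out after its values were seen, gave 91.9 and 144, both below the floor, and 1791. The other 8 endothelial markers summed to 2744 in the control aorta, 3270 at the low dose and 2430 at the high dose. At the high dose Egfl7 (75.9, beside 565 in the control), Icam2, Edn1 and Vwf (470, beside 501) read lower than in the control. Cav1, Pecam1 (598, beside 427), Sele and Selp read higher, and some of these values lay below the floor. The 8 markers thus had no common direction. In whole aorta, fewer cells of a type and less RNA per cell cannot be told apart.

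**Figure D1:**
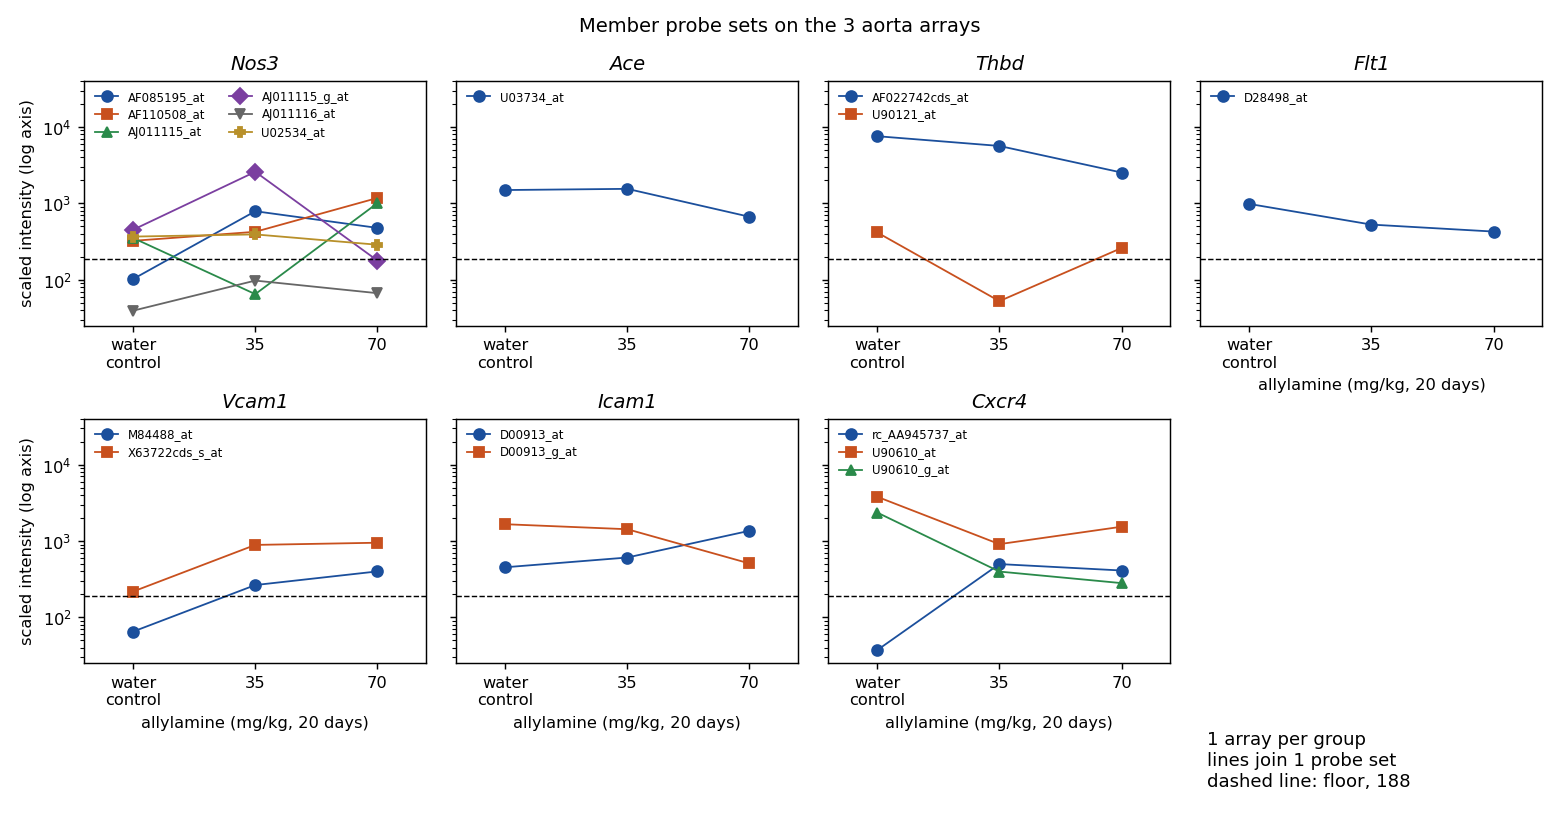
Scaled intensity (log axis) of each of the 17 member probe sets on the control, 35 mg/kg and 70 mg/kg arrays, with 1 panel per gene, a line joining the values of 1 probe set and a dashed line at the floor of 188. Both Vcam1 probe sets are higher on both allylamine arrays than on the control array, and the 6 Nos3 probe sets cross one another. Of the 3 Cxcr4 probe sets, 2 from 1 source sequence are lower and the third is higher.

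At the high dose, Ace (a log2 difference of -1.16), Thbd (-1.58 and -0.68) and Flt1 (-1.20) were lower than in the control aorta and Vcam1 (2.12 and a bound) was higher. Cxcr4 was lower on 2 of its 3 probe sets, which come from 1 source sequence, and higher on the third (a bound). The probe sets of Nos3 and Icam1 disagreed in direction. Of the 12 member probe sets measured at the high dose and in the control, 4 were at least 2-fold higher (33.3%) and 6 at least 2-fold lower (50.0%). As the members were chosen with such results known, their shares are a description. Among all measured probe sets, 20.7% were at least 2-fold higher and 24.3% at least 2-fold lower. The median member difference was -0.92, beside -0.05 over all probe sets, and the median absolute difference was 1.55, beside 0.90. At the low dose, 2 of 11 member probe sets were at least 2-fold higher (18.2%) and 2 at least 2-fold lower (18.2%), where the shares over all probe sets were 18.6% and 17.4%. The members' share at the low dose was thus near that of the whole array. Their median difference there was 0.05, beside 0.04 over all probe sets, and the median absolute difference was 0.42, beside 0.74. The 2 doses share their control array.

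**Figure D2:**
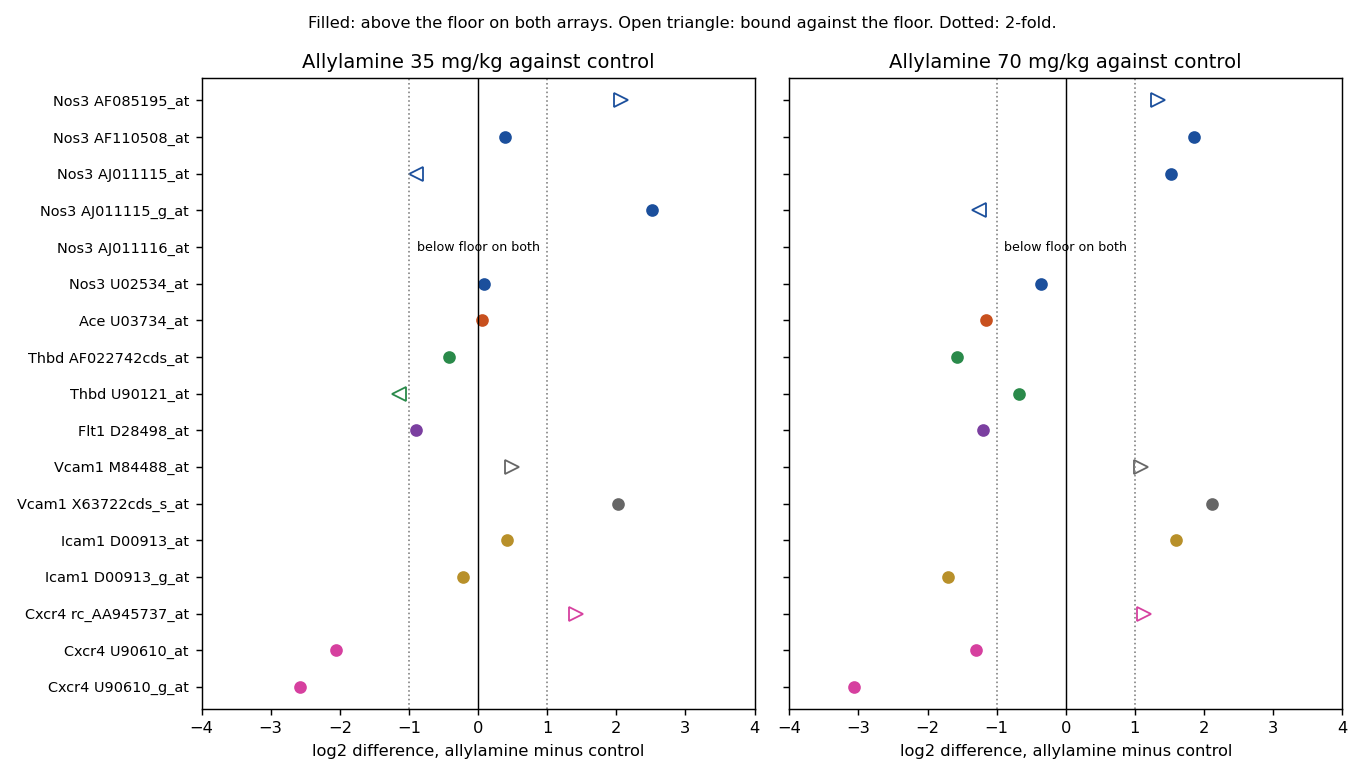
Log2 difference, allylamine minus control, of each member probe set at 35 mg/kg (left) and 70 mg/kg (right). Filled points were above the floor on both arrays, open triangles are bounds against the floor, and dotted lines mark 2-fold. At 70 mg/kg 4 filled points lie beyond the upper line and 6 beyond the lower one.

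Ace converts angiotensin I to the vasoconstrictor angiotensin II and breaks down bradykinin. Its single probe set, U03734_at, had intensities of 1494 in the control aorta, 1549 at the low dose and 667 at the high dose. The control and low dose values lay close together, with a log2 difference of 0.05. The high dose value was lower than control by a log2 difference of -1.16 and lower than the low dose value by -1.21. The size of the difference at the high dose was below the SD between probe sets of 1 gene (1.40).

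Thrombomodulin binds thrombin on the endothelial surface and turns it to the activation of the anticoagulant protein C. Its probe set AF022742cds_at read 7578 in the control aorta, 5649 at the low dose and 2534 at the high dose. These intensities were lower at each higher dose, with log2 differences of -0.42 at the low dose and -1.58 at the high dose. The other, U90121_at, read 416 in the control aorta, 52.4 at the low dose, which is below the floor, and 260 at the high dose. On this probe set the low dose value was at least 2.21-fold lower than control, and the high dose value was lower by a log2 difference of -0.68. Both Thbd probe sets were therefore lower than control on each allylamine array, but they placed the lowest value at different doses. Under quantile normalization the AF022742cds_at difference at the high dose was -0.98, within 2-fold.

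Flt1 encodes VEGF receptor 1, which binds VEGF-A tightly and can act as a decoy for it. Its single probe set D28498_at read 983 in the control aorta, 527 at the low dose and 427 at the high dose. The log2 differences from control were -0.90 at the low dose and -1.20 at the high dose. The difference of -0.30 between the 2 doses was smaller than either, and the low dose value lay nearer to the high dose value than to the control. In size, both differences from control were below the SD between probe sets of 1 gene (1.08 at the low dose and 1.40 at the high dose).

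Nos3 makes nitric oxide from arginine in endothelial cells. It had 6 probe sets, and they gave no common direction. AF110508_at read 323 in the control aorta, 424 at the low dose and 1177 at the high dose, a log2 difference of 0.39 at the lower dose and 1.86 at the higher. U02534_at was nearly level, at 367, 392 and 287, with differences of 0.09 and -0.36. AF085195_at read 102 in the control aorta, below the floor, 789 at the low dose and 477 at the high dose, so that it was at least 4.19-fold higher at the low dose and at least 2.53-fold higher at the high dose. AJ011116_at lay below the floor on all 3 arrays, at 39.3, 97.4 and 66.6.

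The other two Nos3 probe sets come from 1 source sequence, as their names show, and moved in opposite directions. AJ011115_at read 352 in the control aorta, 64.7 at the low dose, below the floor, and 1007 at the high dose. AJ011115_g_at read 451 in the control aorta, 2591 at the low dose and 178 at the high dose, below the floor. The first was thus lowest at the low dose and the second highest there. In no comparison were both probe sets measured, so that each contrast between them rests in part on a bound. The median over the 3 Nos3 probe sets measured at the high dose and in the control was 1.52, with a range from -0.36 to 1.86, and at the low dose it was 0.39, from 0.09 to 2.52. No single Nos3 level per array can be read from these probe sets.

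VCAM-1 and ICAM-1 are immunoglobulin-type proteins of the endothelial surface. VCAM-1 binds the integrin VLA-4 of lymphocytes and monocytes, and ICAM-1 binds LFA-1 and Mac-1. Cytokines induce both genes through the transcription factor NF-kB, and CXCR4 is the receptor by which leukocytes follow the chemokine CXCL12. The 250 bases before the start of these 3 genes are shown because Vcam1 and Cxcr4 had the largest differences of the members at the high dose and Icam1 is the second adhesion gene. The sequences are those of RefSeq on the rat build GRCr8, which holds a promoter entry for 6 of the 7 members. Thbd was the one not matched. In Vcam1 capitals mark the NF-kB type motif GGGNTTNCC and the TATA box TATAAA, in Icam1 the NF-kB type motif GGAAATTCC and TATAAA, and in Cxcr4 the GC box GGGCGG and TATAAA, each on either strand. The Vcam1 window is chr2:206742784-206743033 on the minus strand, that of Icam1 is chr8:27829595-27829844 on the plus strand and that of Cxcr4 is chr13:42634289-42634538 on the minus strand.
Vcam1: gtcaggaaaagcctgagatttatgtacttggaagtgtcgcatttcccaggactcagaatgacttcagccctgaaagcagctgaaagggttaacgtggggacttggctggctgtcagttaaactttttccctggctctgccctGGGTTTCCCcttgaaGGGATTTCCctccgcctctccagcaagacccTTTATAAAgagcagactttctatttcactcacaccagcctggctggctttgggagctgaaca
Icam1: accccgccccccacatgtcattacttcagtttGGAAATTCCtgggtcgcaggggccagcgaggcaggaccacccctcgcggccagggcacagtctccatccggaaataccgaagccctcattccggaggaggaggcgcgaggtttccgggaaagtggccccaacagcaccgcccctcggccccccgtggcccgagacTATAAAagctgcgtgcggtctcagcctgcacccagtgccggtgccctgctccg
Cxcr4: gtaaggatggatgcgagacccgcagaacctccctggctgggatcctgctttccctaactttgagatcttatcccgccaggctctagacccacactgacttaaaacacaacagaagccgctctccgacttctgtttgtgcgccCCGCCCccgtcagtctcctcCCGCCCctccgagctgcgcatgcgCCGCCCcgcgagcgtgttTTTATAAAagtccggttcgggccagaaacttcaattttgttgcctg

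The motif letters were chosen with these promoters in view. GGGNTTNCC occurred at 2 places in the Vcam1 window, 108 to 100 and 93 to 85 bases before the start, and in 4.04% of 33469 rat promoter windows of 250 bases. GGAAATTCC occurred once in the Icam1 window, 218 to 210 bases before the start, and in 0.287% of windows. Neither was found in the windows of Nos3, Ace, Flt1 or Cxcr4. TATAAA was found in the windows of Ace, Flt1, Vcam1, Icam1 and Cxcr4, and in 12.9% of all windows. In Vcam1 and Cxcr4 it overlaps its own match on the other strand, so that the run TTTATAAA is in capitals. GGGCGG stood at 3 places in the Cxcr4 window, read there on the other strand as CCGCCC, and in 30.5% of all windows. It was also found in the windows of Nos3, Ace, Flt1 and Icam1, and of the 6 members matched Vcam1 alone had none. These are matches of letters and not measured binding sites.

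Vcam1 was higher on both allylamine arrays by both probe sets. X63722cds_s_at read 218 in the control aorta, just above the floor, 889 at the low dose and 950 at the high dose. M84488_at read 65.1 in the control aorta, below the floor, 265 at the low dose and 400 at the high dose. The allylamine arrays exceeded the control array on each probe set, and the values at the 2 doses lay near each other. The log2 differences of X63722cds_s_at were 2.02 at the low dose and 2.12 at the high dose, larger than the SD between probe sets of 1 gene (1.08 and 1.40). The differences of M84488_at were bounds of at least 1.41-fold and at least 2.12-fold. Between the high and the low dose the differences were 0.10 and 0.59. The suffix of X63722cds_s_at marks a probe set whose probes may match several transcripts.

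The 2 Icam1 probe sets, again from 1 source sequence, ran in opposite directions. D00913_at read 453 in the control aorta, 608 at the low dose and 1362 at the high dose, and D00913_g_at read 1660, 1427 and 508. At the low dose the differences were small, 0.42 and -0.22. At the high dose they were 1.59 and -1.71, which lie 3.30 apart, so that the median of -0.06 describes neither probe set. Over the 213 such pairs on the array measured at the high dose and in the control, the median distance was 1.20, 41.8% of pairs had opposite signs and 24.9% lay at least 2 apart. No direction for Icam1 at the high dose can be read from these values.

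**Figure D3:**
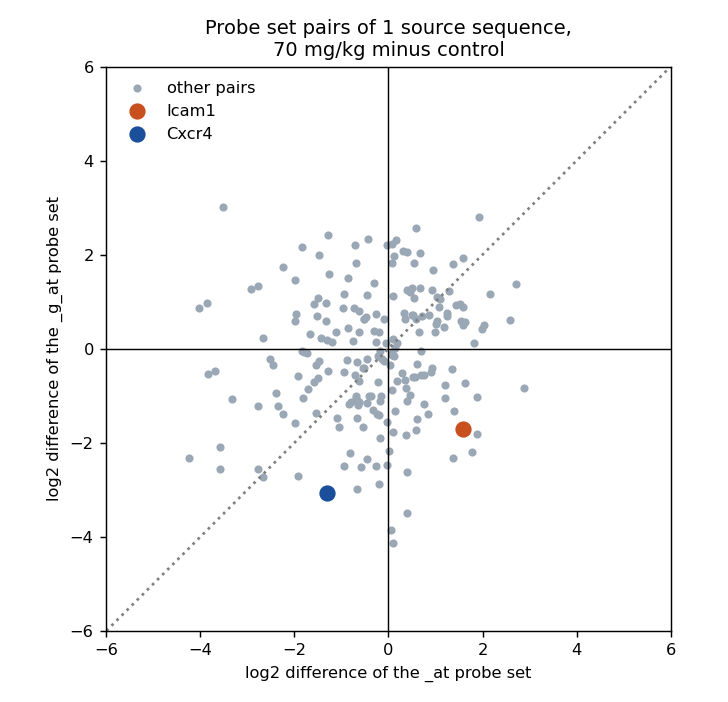
Log2 differences, 70 mg/kg minus control, of 213 pairs of probe sets made from the same source sequence, with the _at probe set on the x axis and the _g_at probe set on the y axis; the dotted line marks equal values. Icam1 lies at the lower right, at 1.59 and -1.71, Cxcr4 at the lower left, at -1.30 and -3.07, and 41.8% of all pairs have opposite signs.

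Cxcr4 was lower on both allylamine arrays by 2 of its 3 probe sets. Those 2 come from 1 source sequence, as their names show, and the third comes from another. U90610_at read 3799 in the control aorta, 910 at the low dose and 1539 at the high dose, and U90610_g_at read 2361, 398 and 281. On both, the control array was the highest of the 3. The log2 differences of U90610_at were -2.06 at the low dose and -1.30 at the high dose, and those of U90610_g_at were -2.57 and -3.07. The third probe set, rc_AA945737_at, went the other way, reading 37.2 in the control aorta, below the floor, 499 at the low dose and 411 at the high dose. It was at least 2.65-fold higher at the low dose and at least 2.18-fold higher at the high dose. Under quantile normalization the U90610_at difference at the high dose was -0.88, within 2-fold.

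Cxcr4 is carried by lymphocytes and other leukocytes as well as by endothelial cells. Of 9 T cell markers, 8 lay above the floor in the control aorta, 7 at the low dose and 4 at the high dose, and their summed intensities were 6400, 2932 and 3276. Cd2 lay below the floor on all 3 arrays. Of 7 macrophage markers, 5, 4 and 5 lay above the floor, with sums of 2517, 1862 and 3294, and Csf1r and Itgam were below it throughout. The 2 B cell markers on the array lay above the floor on every array and summed to 845, 1669 and 926. Of 6 neutrophil and mast cell markers, 5, 3 and 3 lay above the floor, with sums of 1734, 1230 and 1166, and Cpa3 was below it throughout. The part of these cell types in the Cxcr4 difference was not tested.

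**Figure D4:**
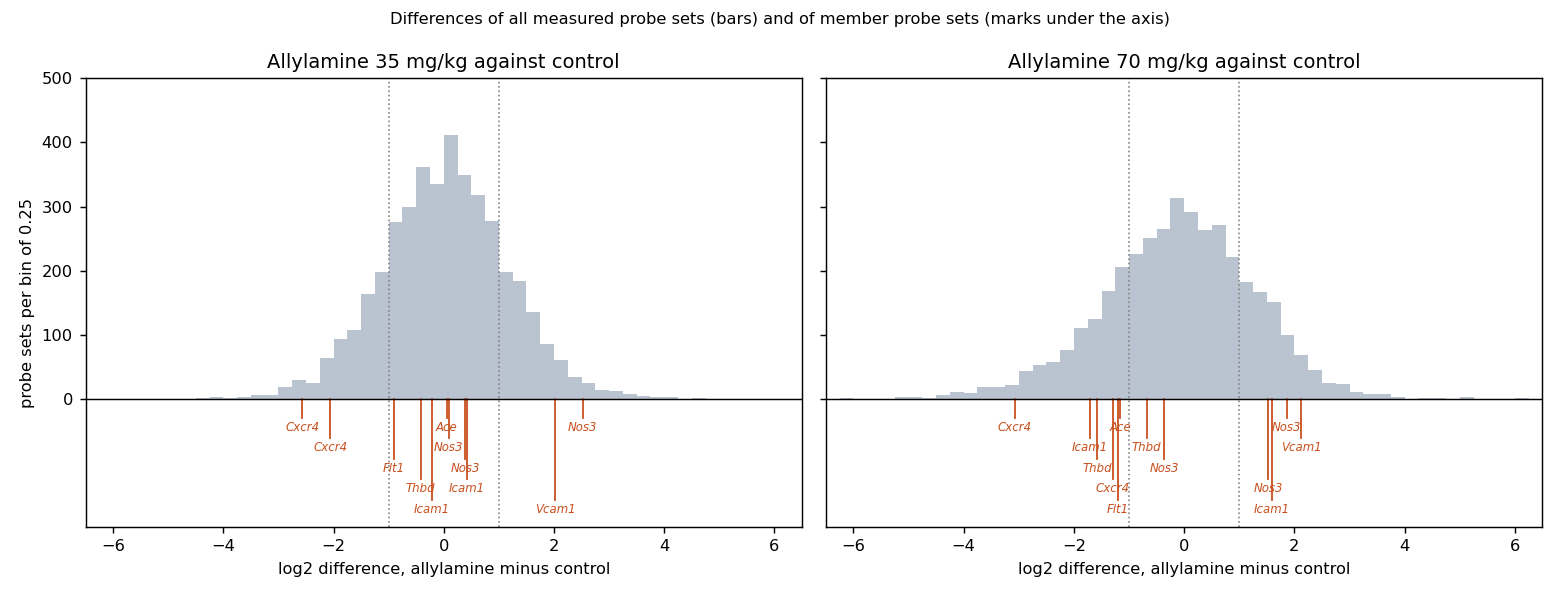
Histogram of the log2 differences of all probe sets above the floor on both arrays (bars, bins of 0.25) at 35 mg/kg (4103 probe sets) and 70 mg/kg (3827), with the measured member probe sets as named marks under the axis and dotted lines at 2-fold. At 35 mg/kg 7 of 11 member marks lie between the lines, and at 70 mg/kg 2 of 12 do.

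Between the high and the low dose 13 member probe sets were measured. Of these, 2 were at least 2-fold higher (15.4%) and 3 at least 2-fold lower (23.1%), beside 16.4% and 22.9% over all 3932 probe sets measured on both arrays. Those higher were Nos3 AF110508_at (1.47) and Icam1 D00913_at (1.16). Those lower were Icam1 D00913_g_at (-1.49), Ace (-1.21) and Thbd AF022742cds_at (-1.16). The other 8 probe sets lay within 2-fold, among them Flt1, all 3 Cxcr4 probe sets and both Vcam1 probe sets. By the median of their probe sets, 0 of the 7 genes were higher and 2 lower, beside 14.4% and 20.9% over 2459 genes.

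Of the genes around the members, the renin-angiotensin-kinin list had the most members of the 8 lists at least 2-fold lower at the high dose. Of 10 measured genes 4 were lower and 2 higher, and the median was -0.61, beside -0.06 over all 2462 genes measured at the high dose and in the control, of which 19.7% were at least 2-fold higher and 23.2% at least 2-fold lower. The lower ones were the mast cell chymase Cma1 (-2.46), neprilysin (Mme, -1.45), the angiotensin receptor Agtr1a (-1.29) and aminopeptidase N (Anpep, -1.01). The kininogen Kng2 (1.63) and the mineralocorticoid receptor Nr3c2 (1.10) were higher. When the floor was lowered to the 5th percentile and more probe sets entered, Agtr1a was at 0.51, Nr3c2 at -0.04 and the list median at -0.03. Anpep was within 2-fold on the values as deposited (-0.86), with a common trimmed mean (-0.85) and under quantile normalization (-0.84), where the median was -0.35. Angiotensinogen (Agt), from which Ace's substrate is cut, read 828 in the control aorta, 1222 at the low dose and 1203 at the high dose. At the low dose, 2 of 11 genes were higher, Kng2 (2.56) and Nr3c2 (1.32, from 0.60 to 2.05 on 2 probe sets), and 1 was lower, the kallikrein Klk1 (-1.17). The list median there was 0.34, beside 0.04 over 2606 genes, of which 16.8% were at least 2-fold higher and 16.3% at least 2-fold lower.

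The nitric oxide and prostacyclin list was divided at both doses, with medians of 0.19 at the low dose and -0.03 at the high dose. At the high dose 2 of 14 genes were at least 2-fold higher and 2 lower, beside 19.7% and 23.2% over all measured genes. The subunits of soluble guanylyl cyclase, the receptor of nitric oxide, were on opposite sides, Gucy1a1 at 1.15 and Gucy1b1 at -1.01, or -0.86 on the values as deposited. So were enzymes of tetrahydrobiopterin, the cofactor of nitric oxide synthases, with the recycling enzyme Qdpr at 1.63, or -0.07 with a floor at the 5th percentile, and the synthesising enzyme Spr at -1.20, or -0.96 under quantile normalization. The other synthesising enzymes were Gch1 at 0.99, or 1.14 on the values as deposited, and Pts at -0.32. At the low dose, where 16.8% of all measured genes were higher and 16.3% lower, 1 of 13 genes was higher. It was the neuronal synthase Nos1 (1.07, from -0.03 to 2.16 on 2 probe sets). Lower there were Ddah1 (-1.36, from -2.69 to -0.03), which breaks down an inhibitor of nitric oxide synthases, and the cyclooxygenase Ptgs1 (-1.06). In the endothelin list, 3 genes were measured and 0 differed 2-fold at either dose. Edn1, the main endothelial vasoconstrictor peptide, was at 0.74 at the low dose and -0.56 at the high dose, Edn3 at 0.88 and 0.97 (at the high dose 1.12 on the values as deposited, 1.13 with a common trimmed mean and 1.34 under quantile normalization, which are past 2-fold), and the converting enzyme Ece1 at -0.05 and -0.20.

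Of the coagulation and fibrinolysis list, 17 genes were on the array but only 6 were measured at the low dose, with 1 at least 2-fold higher and 1 lower, and 4 at the high dose, with 1 higher and 0 lower. Coagulation factor X (F10), which makes thrombin from prothrombin, was at 3.43 at the low dose and 2.37 at the high dose, and the thrombin receptor F2r was at -1.62 at the low dose. At the high dose the heparin cofactor Serpind1 was at -0.98 and the urokinase receptor Plaur at -0.63. The list medians were 0.29 and -0.38. Over all measured genes 16.8% were higher and 16.3% lower at the low dose, and 19.7% and 23.2% at the high dose.

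In the VEGF and angiopoietin list 4 of 11 genes on the array were measured at each dose. At the low dose 3 were at least 2-fold higher, the phospholipase Plcg1 (1.60), angiopoietin 2 (Angpt2, 1.39) and the hypoxia factor partner Arnt (1.24, from 0.57 to 1.91 on 2 probe sets). At the high dose 2 were, Angpt2 (1.86) and Plcg1 (1.38), and 0 were lower at either dose. The shares over all measured genes were 16.8% higher and 16.3% lower at the low dose, and 19.7% and 23.2% at the high dose. The list medians of 1.31 and 1.16 rest on its 4 measured genes. With a floor at the 55th percentile they were 0.05 on 2 genes and -0.25 on 1. With a floor at the 25th percentile, where more genes entered, they were 1.24 on 5 genes and 0.51 on 6. With a floor at the 5th percentile they were 1.1 and 0.76, each on 10 genes. Without less specific probe sets they were 1.02 and 0.57, each on 4 genes. Vegfa, the ligand of Flt1, had 4 probe sets that disagreed. M32167_at read 557 in the control aorta, 406 at the low dose and 289 at the high dose, and rc_AA850734_at read 227, 769 and 80.8. Kdr, the other receptor of this ligand, was at least 9.51-fold higher at the high dose than in the control, where its probe set lay below the floor, whereas Flt1 was lower. No test of that contrast between the receptors was possible.

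**Figure D5:**
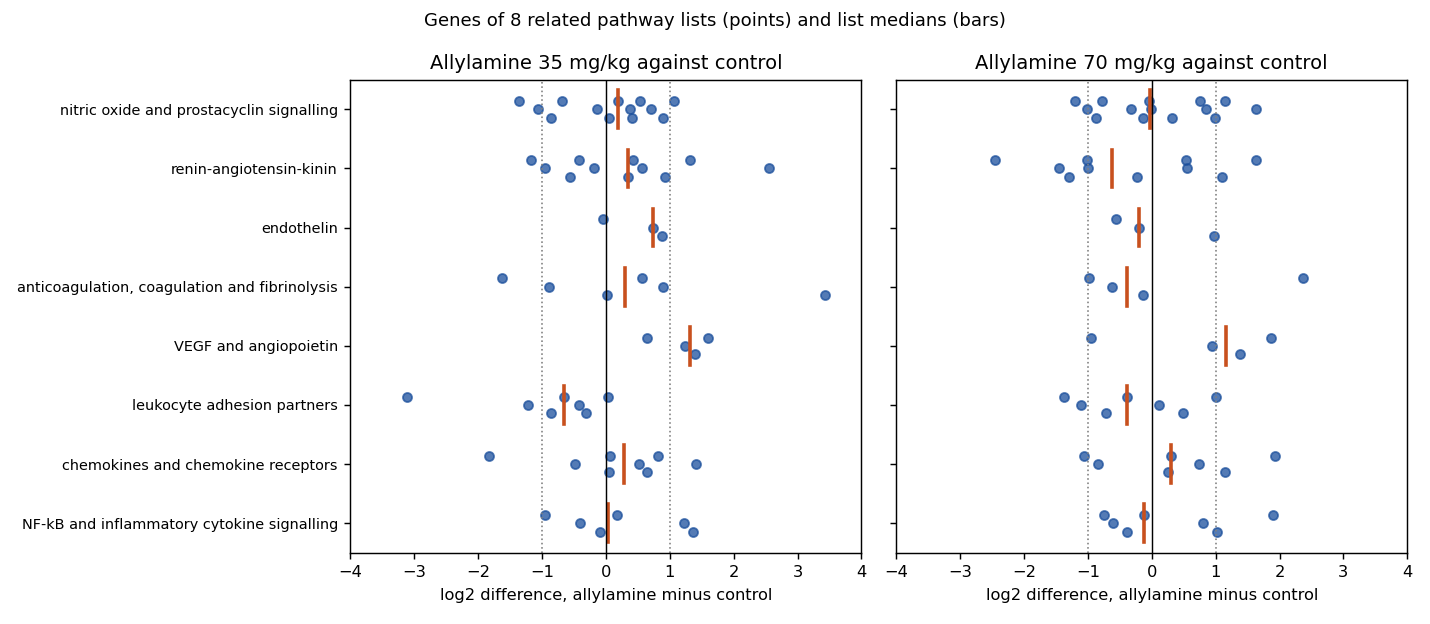
Log2 difference, allylamine minus control, of each measured gene (point, median of its probe sets) of 8 related pathway lists at 35 mg/kg (left) and 70 mg/kg (right), with a bar at each list's median and dotted lines at 2-fold. The VEGF and angiopoietin medians, on 4 genes, are 1.31 and 1.16, and the renin-angiotensin-kinin median is 0.34 at 35 mg/kg and -0.61 at 70 mg/kg.

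The partners of the adhesion molecules were mostly not measured or within 2-fold. Of 7 measured genes of that list, 0 were higher and 2 lower at the low dose, and 1 was higher and 2 lower at the high dose, with medians of -0.65 and -0.39. Among all measured genes 16.8% were higher and 16.3% lower at the low dose, and 19.7% and 23.2% at the high dose. The selectin ligand Glycam1 was at -3.11 at the low dose and -1.10 at the high dose, where it was within 2-fold on the values as deposited (-0.95), with a common trimmed mean (-0.94) and under quantile normalization (-0.92). Icam2, an endothelial relative of Icam1, was at -1.22 at the low dose. At the high dose the cytoskeletal linker Actn4 was at -1.38 and Cd47, a partner in leukocyte transmigration, at 1.01, or 0.98 under quantile normalization. Itgb1, a chain of the VCAM-1 receptor, read 103 in the control aorta, 439 at the low dose and 138 at the high dose, above the floor at the low dose alone. The endothelial selectin Sele read 144 in the control aorta, below the floor, 349 at the low dose and 407 at the high dose. The related Selp read 169, 757 and 185, above the floor at the low dose alone. Both were named after their values were seen.

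Among chemokines and their receptors, 1 of 8 measured genes was higher and 1 lower at the low dose, and 2 of 7 were higher and 1 lower at the high dose, with medians of 0.29 and 0.30. Beside these counts and those of the next list, all measured genes had 16.8% higher and 16.3% lower at the low dose. At the high dose the shares were 19.7% and 23.2%. Cxcl10, which attracts T cells, was at 1.93 at the high dose, and the monocyte chemokine Ccl2 at 1.14. Cx3cl1, a chemokine held on the endothelial membrane, was at 1.41 at the low dose (0.53 to 2.30) and -1.06 at the high dose (-3.13 to 1.01), its 2 probe sets on opposite sides at the higher dose, where 3 of the other settings left a value of 1.01. Platelet factor 4 (Pf4) was at -1.83 at the low dose. In the NF-kB and cytokine list the low dose array had 2 of 6 genes past 2-fold upward, the TNF receptor Tnfrsf1a (1.36) and Fos (1.22, from 0.06 to 2.39 on 2 probe sets, and 0.08 on the values as deposited), and 2 of 7 at the high dose, the interferon-induced transcription factor Irf1 (1.90) and Jun (1.02, or 0.46 when the floor was lowered to the 5th percentile). The interleukin 1 receptor Il1r1 was at 0.81 there. In this list 0 genes were at least 2-fold lower at either dose, and its medians were 0.04 and -0.12.

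The genes with the pair of differences from control nearest to each member were found among 2121 genes above the floor on all 3 arrays, by the Euclidean distance between the pairs. Nearest to Vcam1 (2.02 at the low dose and 2.12 at the high dose) was the lens connexin Gja3 (2.02 and 2.07), followed by the lens crystallin Cryaa (1.98 and 2.18). For Cxcr4 the pattern was -2.32 and -2.19, the median of 2 probe sets without the third, which went the other way. The genes nearest to it were Alkbh7 (-2.22 and -2.29) and the glutathione peroxidase Gpx2 (-2.21 and -2.01). Those of Thbd (-0.42 and -1.58) were the carbonyl reductase Cbr1 (-0.37 and -1.59) and cyclin D1 (Ccnd1, -0.46 and -1.62). Those of Ace were Pank2 and the fatty acid synthase Fasn, at distances of 0.014 and 0.023, and Flt1 lay nearest to Plpp2 (0.016) and 1810009J06Rikl (0.035). For Icam1 they were Bcl2l1 (0.025) and Cuzd1 (0.042), and for Nos3 Acsl3 (0.021) and Cst8 (0.038), although both members are medians of probe sets that disagreed. For Nos3 the median was that of its 2 probe sets above the floor on all 3 arrays, 0.24 at the low dose and 0.75 at the high dose. Each pattern rests on 3 arrays and the same control value.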

How the data were processed

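The deposited table holds 1 linear intensity per probe set and array. The sources used here do not name the authors' software or scaling. Of 8799 probe sets, 59 controls were left out. Of the 8740 others, 7006 had exactly 1 gene symbol in the platform annotation, 308 several and 1426 none. By gene ID, 6985 of the 7006, and all 7 members, were found in the GRCr8 gene table.

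Each array was scaled to the mean of the 3 medians (deposited medians 256 for control, 260 at 35 mg/kg and 284 at 70 mg/kg). The floor was the 40th percentile of all scaled values. Precision is limited by having 1 array per group. A gene's difference is the median of its measured probe sets.

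The members, the 8 pathway lists and the cell type lists were chosen with earlier results of these data known. All members and probe sets are named. The rule further took up to 3 genes per pathway list with the largest absolute difference at 70 mg/kg and 2 at 35 mg/kg, the partners Cxcl12, Vegfa, Agt, Itgb2, Itga4 and Itgb1, and the 2 genes nearest in pattern to each member. Of the partners, Vegfa, Agt and Itgb1 had a probe set with 1 symbol, and the others were not analysed here. Genes behind counts of 5 or fewer that this rule did not take were named after their values had been seen. The calculation was tested on simulated data with far less noise than the disagreement between probe sets of a gene seen here. That test checks the code and does not show how often a 2-fold difference arises on these arrays without a true change. Python 3.11.15, numpy 2.4.6 and pandas 2.3.3 were used.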

Additional observations from a re-analysis of the deposited data

How the results depend on the processing

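No paired analysis was possible because each group has 1 array. The 8 alternatives were the values as deposited, quantile normalization, a trimmed mean set equal on the arrays, a floor at the 5th, the 25th or the 55th percentile, leaving out less specific probe sets, and counting genes in place of probe sets. A change of floor leaves the difference of a measured probe set as it is. The values as deposited and the trimmed mean shift all differences of a comparison by the same small amount. Apart from quantile normalization, the first 6 therefore left little room for a change of sign. No difference of a single member probe set changed sign under the first 6. Under quantile normalization 3 of them moved to within 2-fold: Thbd AF022742cds_at at the high dose against control (-0.98) and against the low dose (-0.44), and Cxcr4 U90610_at at the high dose against control (-0.88). With a floor at the 5th percentile, an intensity of 34.4, all 17 probe sets were measured, and the counts at least 2-fold higher became 7 at the high dose, 6 at the low dose and 4 between the doses, with 7, 4 and 4 at least 2-fold lower. The shares over all probe sets at that floor were 26.4% higher and 28.1% lower at the high dose, 22.0% and 23.5% at the low dose, and 24.4% and 25% between the doses. Vcam1 M84488_at then stood at 2.02 at the low dose and 2.62 at the high dose, and Cxcr4 rc_AA945737_at at 3.74 and 3.47, opposite to the other two Cxcr4 probe sets. The count higher at the low dose was 1 with a floor at the 55th percentile and 1 without less specific probe sets, since both leave out X63722cds_s_at of Vcam1. Counted by gene, 2 of 7 were higher and 4 lower at the high dose (over all genes 19.7% and 23.2%), 1 higher and 1 lower at the low dose (16.8% and 16.3%), and 0 higher and 2 lower between the doses (14.4% and 20.9%). Quantile normalization, unlike scaling to a common median, makes the spread of intensities equal on the arrays. The cause of the changes under quantile normalization was not tested. The pathway genes and list medians were recomputed under the first 7 alternatives, which for them was chosen after seeing the data. Of the differences from control of at least 2-fold, those at the high dose that changed sign were Qdpr (-0.07), Agtr1a (0.51) and Nr3c2 (-0.04) with a floor at the 5th percentile, Nr3c2 (-0.04) with one at the 25th, and Cx3cl1 (1.01) with one at the 5th or the 55th and without less specific probe sets. The VEGF and angiopoietin median was -0.25 with a floor at the 55th percentile, with 1 gene left. Of the pathway genes past 2-fold at the high dose, 4 of 20 came within it on the values as deposited and with a common trimmed mean (Anpep, Cx3cl1, Glycam1 and Gucy1b1), 5 of 21 under quantile normalization (Anpep, Cx3cl1 at -0.69, Glycam1, Spr and Cd47), and 4, 3, 1 and 1 under the alternatives of floor and probe set. At the low dose between 0 and 3 did. Each alternative of floor or probe set changes which probe sets enter a gene or list.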

Other observations

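Marker lists of further cell types of the aortic wall and its surroundings were read on the same arrays. Of 7 fibroblast markers, all 7 lay above the floor on each array, and their summed intensity was 8606 in the control aorta, 20781 at the low dose and 9701 at the high dose. Of 7 adipocyte markers 5, 6 and 6 lay above the floor, with sums of 8592, 8204 and 3915. Of 7 skeletal muscle markers 6, 3 and 4 did, with sums of 3023, 3124 and 2834, and of 7 nerve and Schwann cell markers 5, 6 and 4, with sums of 2987, 4205 and 3808. Nefm was below the floor throughout. Among the endothelial markers, Egfl7 read 565 in the control aorta, 307 at the low dose and 75.9 at the high dose, whereas Pecam1 read 427, 436 and 598. P-selectin (Selp), which like Sele captures leukocytes, read 169, 757 and 185, above the floor at the low dose alone. These genes were singled out after their values were seen.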
